A study of Mus musculus with 6 samples.

Results

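The thrombospondins are a family of 5 secreted glycoproteins of the extracellular matrix, encoded in the mouse by *Thbs1*, *Thbs2*, *Thbs3*, *Thbs4* and *Comp*, the last also known as thrombospondin 5. The family was taken by gene name from the read tables of 6 libraries, where all 5 genes were found among 53715 listed genes, and all 5 were among the 16391 genes that had enough reads to be tested. The libraries were made from total RNA of calvarial cells isolated from newborn C57BL/6J mice and cultured for 7 days in osteogenic medium. There were 3 Wild-type libraries and 3 Fam102a KO libraries. The Fam102a KO mice lacked exons 2 and 3 of *Fam102a* throughout the body after crossing of floxed mice with *Actb*-*Cre* mice, so that every cell type in the culture carried the deletion. The labels do not say whether replicates came from separate mice, and p-values therefore measure the spread between these libraries, part of which may be technical. The libraries are named by genotype and replicate number.

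Thrombospondins are large modular proteins that bind calcium, cell surface receptors and other matrix proteins. Thbs1 and Thbs2 form trimers and carry the procollagen-like domain and the type 1 repeats, through which they bind CD36 on endothelial cells and restrain the growth of blood vessels. Thbs1 also activates latent TGF-beta. Thbs3, Thbs4 and Comp form pentamers that lack the type 1 repeats, and Comp, which is abundant in cartilage and tendon, binds collagens II and IX and matrilins and helps to assemble collagen fibrils. Mutations of human COMP cause pseudoachondroplasia, a skeletal dysplasia. The comparison of the genotypes asked how the loss of Fam102a, which the study examined as a regulator of osteoblast differentiation, was accompanied by changes of these matrix genes.

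*Comp* was the member that differed most, with mean levels of 286 CPM (gene reads scaled to the library size after TMM normalisation) in Wild-type and 100.5 in Fam102a KO. It was also the single member of the 5 that passed the test across all genes. *Thbs1*, one of the most abundant mRNAs of the cultures, and the scarce *Thbs3* were lower in every Fam102a KO library than in every Wild-type library, but by far less and without passing the adjusted threshold. *Thbs2* and *Thbs4* overlapped between the genotypes.

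The libraries held 12212169 to 21210150 reads counted in genes. Introns took 52.5, 54.5 and 52.2% of these in Wild-type replicates 1, 2 and 3, and 46.4, 53.2 and 45.8% in Fam102a KO. The TMM factors were 0.967, 0.931 and 0.968 in Wild-type and 1.08, 0.957 and 1.11 in Fam102a KO. RPKM, used below to compare levels, were not TMM-normalised. Across all genes, 3 were higher and 5 lower in Fam102a KO at an adjusted p under 0.05 in the quasi-likelihood test of edgeR, adjusted by Benjamini-Hochberg. The median log2 fold change of all tested genes was 0.00. The labelled genotype could not be checked from the reads of *Fam102a*, since reads were counted over the whole gene and not over the deleted exons. *Fam102a* itself stood at 13.7 ± 0.958 CPM in Wild-type and 13.3 ± 0.469 in Fam102a KO (SD, n = 3). The sheet names of the deposited tables name the same run for replicates 2 and 3 of each genotype and no run for replicate 1, so values from replicates 2 and 3 alone are given where they change a result.

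The levels of the members were first compared per length, as RPKM, which divide the exon reads of a gene by its exon length and by the library total. The order was *Thbs1*, *Thbs2*, *Comp*, *Thbs3* and *Thbs4* in all 6 libraries. *Thbs1* stood at 1694, 1510.2 and 1674 RPKM in Wild-type replicates 1, 2 and 3, and at 1435, 1162 and 1385 RPKM in Fam102a KO. This placed it between rank 1 and rank 5 of 16093 tested genes with annotated exons, and its exon reads made up 1.51 to 2.17% of all exon reads of a library. *Thbs2* followed at 154, 130.4 and 120.4 RPKM in Wild-type and 101, 133 and 117 RPKM in Fam102a KO, ranks 126 to 224. *Comp* stood at 93.6, 89.6 and 87.7 RPKM in Wild-type and at 29.6, 39.6 and 33.9 RPKM in Fam102a KO, which moved its rank within the range from 212 to 793. *Thbs3* ranged from 4.26 to 6.78 RPKM and *Thbs4* from 1.05 to 1.86 RPKM. No neighbours in this order overlapped, within a genotype or across the 6 libraries. The ratio of neighbouring levels was smallest for *Thbs2* over *Comp* in Wild-type, at 1.49 ± 0.138, and the same ratio was 3.41 ± 0.0396 in Fam102a KO (SD, n = 3).

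**Figure D1:**
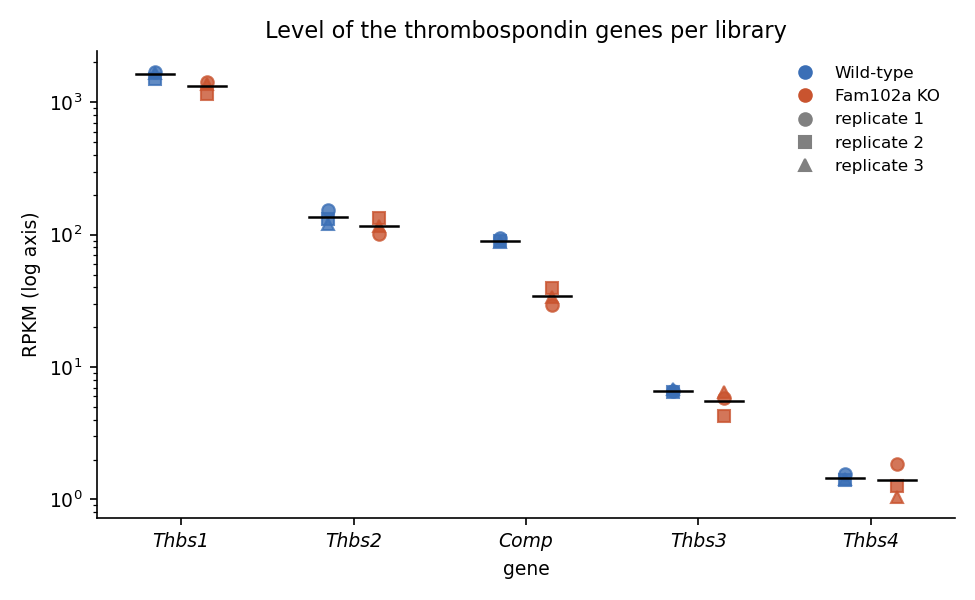
RPKM of the 5 thrombospondin genes on a log axis, with 1 point per library (shape gives the replicate number) and a line at the mean of each genotype. *Thbs1* lies above all other members in every library, *Comp* falls from about the level of *Thbs2* in Wild-type to 29.6 to 39.6 RPKM in Fam102a KO, and *Thbs4* stays near 1 RPKM.

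Because *Thbs1* dominated, the make-up of the family changed little apart from *Comp*. Of the summed RPKM of the 5 genes, *Thbs1* took 87.4 ± 0.963% in Wild-type and 89.2 ± 2.29% in Fam102a KO (SD, n = 3). *Comp* took 4.80, 5.16 and 4.64% in the Wild-type libraries and 1.88, 2.95 and 2.20% in the Fam102a KO libraries, a difference of -2.52 percentage points with no overlap. The exact permutation test of this share gave p = 0.1 (2-sided, n = 3 per genotype), the smallest p that 20 assignments allow. With same-numbered libraries as blocks, the permutation test gave p = 0.25. The share of *Thbs2* was 7.25 ± 0.789% and 7.98 ± 1.79%, that of *Thbs3* 0.356 ± 0.0167% and 0.370 ± 0.0507%, and that of *Thbs4* 0.0785 ± 0.00315% and 0.0934 ± 0.0250% in Wild-type and Fam102a KO, all overlapping. The summed RPKM itself was 1859 ± 109 in Wild-type and 1486 ± 127 in Fam102a KO, also without overlap (exact permutation p = 0.1, n = 3).

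*Comp* (ENSMUSG00000031849) lies on the forward strand at chr8:70373558-70382066 (mm10) and is listed with 25 exons. Its gene reads numbered 3451, 5116 and 5298 in Wild-type replicates 1, 2 and 3, and 1148, 2549 and 1734 in Fam102a KO. Scaled to the library, these were 293, 290.2 and 274 CPM in Wild-type and 82.5, 126 and 93.0 CPM in Fam102a KO. Every Fam102a KO library was below every Wild-type library, and the Wild-type libraries lay close together while Fam102a KO replicate 2 was the highest of its genotype. The log2 fold change was -1.51 (SE 0.164), a 2.84-fold lower level, with an adjusted p of 0.0260 in the same edgeR test. Such lower calls were made for 0.0305% of all genes tested, and *Comp* ranked 5 of 16391 genes by p and 3 among those that were lower. The log2 ratios of same-numbered libraries were -1.83, -1.20 and -1.56.

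The exon reads of *Comp*, 3393, 5048 and 5198 in Wild-type and 1135, 2489 and 1689 in Fam102a KO, gave the same log2 fold change of -1.51 (SE 0.161, adjusted p = 0.0231 in edgeR's quasi-likelihood test), a rule that called 0.0577% of 13858 genes lower. DESeq2 on gene reads also called it lower, with an adjusted p of 8.04e-14, and called 0.415% of genes lower. Between 99.7 and 100% of its exon reads were uniquely placed, and 60.1 to 75.7% crossed an exon junction. Introns took 1.13 to 2.60% of its gene reads, with overlap between the genotypes (exact permutation p = 0.5, n = 3). In 3 against 2 libraries the call was lost with each of the 5 leave-outs other than that of Fam102a KO replicate 2, although the log2 fold change stayed between -1.70 and -1.39 (adjusted p 0.00569 to 0.218 in edgeR's quasi-likelihood test). Within replicates 2 and 3, which share the run name, the log2 fold change was -1.37 (SE 0.173, unadjusted p = 1.85e-04, adjusted p = 0.307 in edgeR's quasi-likelihood test).

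Marker levels of cell types that make Comp are given beside this result, and none of these markers passed the adjusted threshold. Of 15 chondrocyte markers, 13 were found in the tables and 12 tested, and all 12 had a log2 fold change below 0 with a median of -0.64, where 50.2% of all tested genes were below 0. An unadjusted p under 0.05 was reached by 6 of them, against 3.12% of all tested genes in that direction. This list was chosen with earlier results of these data known, so these counts are not independent evidence. Their summed level was 2919 to 3494 CPM in Wild-type and 1803 to 3062 in Fam102a KO, overlapping between the genotypes. By library, the sum was 3329, 3494 and 2919 CPM in Wild-type replicates 1, 2 and 3, and 2606, 3062 and 1803 CPM in Fam102a KO. *Col2a1*, the largest part of that sum, had 2020 ± 243 CPM in Wild-type and 1516 ± 562 in Fam102a KO (SD, n = 3). *Col11a2* had 52.2 ± 11.3 and 23.4 ± 6.97 CPM without overlap, a log2 fold change of -1.16 (SE 0.239). *Hapln1* and the collagen IX genes, also among the lower genes of this list, are given with the matrix partners below. *Matn1* had 20 reads in all 6 libraries together. Of 5 tendon markers, 4 were tested, with a median of -0.12. Among them, 1 was lower at an unadjusted p under 0.05, against 3.12% of all tested genes in that direction. The summed level of the tendon list was 996 to 1419 CPM in Wild-type and 745 to 940.0 in Fam102a KO, with no overlap. That sum was mostly *Fmod*, a collagen-binding proteoglycan, at 1050.3 ± 197 and 729 ± 110.2 CPM, and *Scx*, which defines tendon cells, stood at only 2.03 ± 0.230 and 2.81 ± 0.903. The part of these cells in the *Comp* result was not tested, and in bulk RNA fewer cells of a type and less RNA per cell cannot be told apart.

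**Figure D2:**
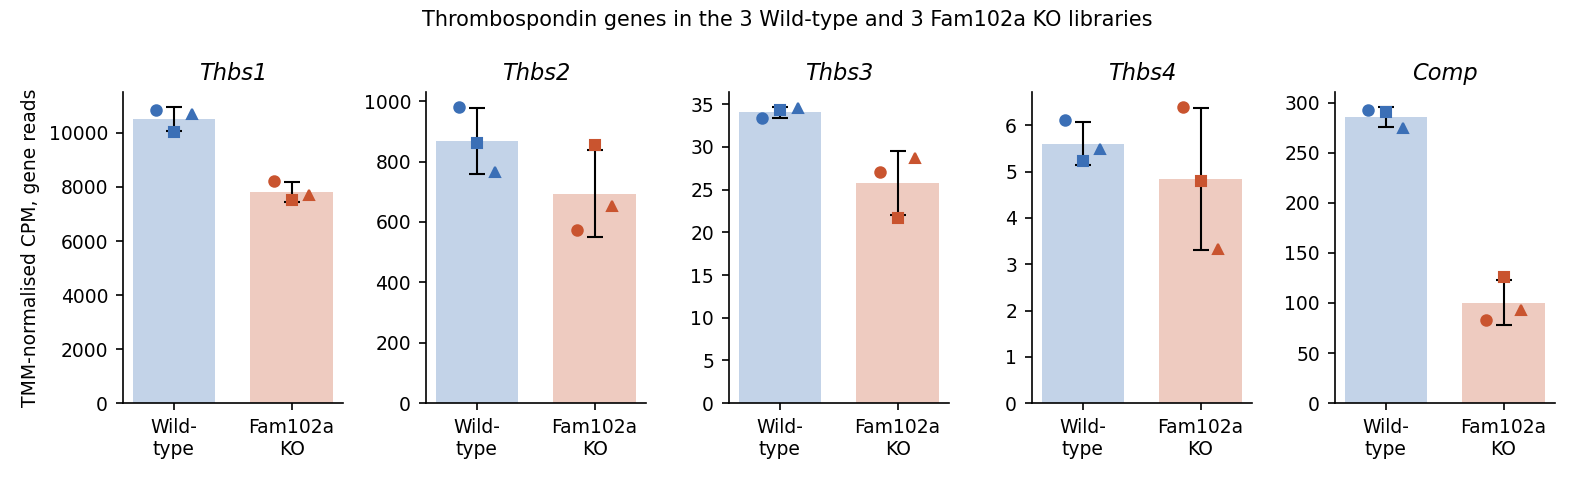
TMM-normalised CPM of gene reads for each member, on linear axes from 0 that differ between panels. Bars are means, whiskers are SDs (n = 3) and points are libraries (circle, square and triangle for replicates 1, 2 and 3). The genotypes do not overlap for *Comp*, *Thbs1* and *Thbs3*, and overlap for *Thbs2* and *Thbs4*.

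*Thbs1* (ENSMUSG00000040152) lies on the forward strand at chr2:118111876-118127133 with 24 exons. Its gene reads numbered 127798, 176744 and 206876 in Wild-type and 114200, 152076 and 143877 in Fam102a KO. These were 10843, 10026 and 10712 CPM in Wild-type and 8211, 7510.5 and 7714 in Fam102a KO, a 1.35-fold lower level with no overlap. The log2 fold change was -0.43 (SE 0.159), with an unadjusted p of 0.0244 and an adjusted p of 0.757 in edgeR's quasi-likelihood test. The same-numbered log2 ratios were close to each other, at -0.40, -0.42 and -0.47. DESeq2 called it lower, with an adjusted p of 0.0342 on gene reads and 0.0148 on exon reads. The study itself singled out *Thbs1* on these libraries, so that this is not independent evidence of its direction. Its exon reads were 99.0 to 99.5% uniquely placed.

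*Thbs2* (ENSMUSG00000023885) lies on the reverse strand at chr17:14665500-14694262 with 22 exons. It had 981, 862 and 764 CPM in Wild-type and 574, 854 and 652 in Fam102a KO. Fam102a KO replicate 2 lay within the Wild-type range, and the other two Fam102a KO libraries lay below it. The log2 fold change was -0.33 (SE 0.179, unadjusted p = 0.102, adjusted p = 0.950 in edgeR's quasi-likelihood test). The same-numbered log2 ratios were -0.77, -0.01 and -0.23 in replicates 1, 2 and 3. The value depended on single libraries, at -0.21 (SE 0.180) without Fam102a KO replicate 1, -0.50 (SE 0.172, unadjusted p = 0.0183, adjusted p = 0.809 in edgeR's quasi-likelihood test) without Fam102a KO replicate 2, and -0.12 (SE 0.173) within replicates 2 and 3.

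*Thbs3* (ENSMUSG00000028047) lies on the forward strand at chr3:89215180-89226837. GENCODE places it wholly within the span of *Mtx1*, a gene of mitochondrial import on the opposite strand at chr3:89209081-89227088. The RefSeq start of *Mtx1*, given below, lies outside *Thbs3*. In GENCODE, 318 of the 4823 exon bases of *Thbs3* are also exon of *Mtx1*. Between 44.4 and 56.7% of its exon reads were uniquely placed and no intron read was, so its level is uncertain. *Thbs3* had 393, 605 and 667 gene reads in Wild-type and 376, 438 and 536 in Fam102a KO, or 33.3, 34.3 and 34.5 CPM against 27.0, 21.6 and 28.7. The Fam102a KO libraries were all lower. The log2 fold change was -0.40 (SE 0.126, unadjusted p = 0.0113, adjusted p = 0.640 in edgeR's quasi-likelihood test). In RPKM the genotypes touched, with Wild-type at 6.44 to 6.78 and Fam102a KO at 4.26 to 6.47. *Mtx1* stood at 14.7 ± 0.855 and 14.5 ± 1.07 CPM (SD, n = 3), with a log2 fold change of -0.02 (SE 0.127).

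*Thbs4* (ENSMUSG00000021702), a gene of tendon, muscle and injured tissue, lies on the reverse strand at chr13:92751590-92794818. It had 72, 92 and 106 gene reads in Wild-type and 89, 97 and 62 in Fam102a KO, which is 6.11, 5.22 and 5.49 against 6.40, 4.79 and 3.32 CPM. The highest and the lowest library were both Fam102a KO. The log2 fold change of -0.22 (SE 0.259) was smaller than its standard error (unadjusted p = 0.424, adjusted p = 1.00 in edgeR's quasi-likelihood test). It was -0.46 (SE 0.262) without Fam102a KO replicate 1, -0.01 (SE 0.22) without Fam102a KO replicate 3 and -0.40 (SE 0.299) within replicates 2 and 3, with 62 to 106 reads per library and an SD of 0.456 CPM in Wild-type and 1.54 CPM in Fam102a KO (n = 3).

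Read together, all 5 members had a log2 fold change below 0, where 50.2% of all tested genes did, and their median was -0.40. At an unadjusted p under 0.05, 3 of the 5 were lower and 0 higher, where 3.12% of all tested genes were lower and 2.92% higher. The same 3, *Comp*, *Thbs1* and *Thbs3*, did not overlap between the genotypes, as was the case with lower values for 5.61% of tested genes. The members and the gene lists were chosen with earlier results of these data known, so such counts are not independent evidence. The replicate block, which compares same-numbered libraries, gave log2 fold changes of -0.43, -0.34, -0.41, -0.26 and -1.53 for *Thbs1*, *Thbs2*, *Thbs3*, *Thbs4* and *Comp*, and changed the call of none.

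**Figure D3:**
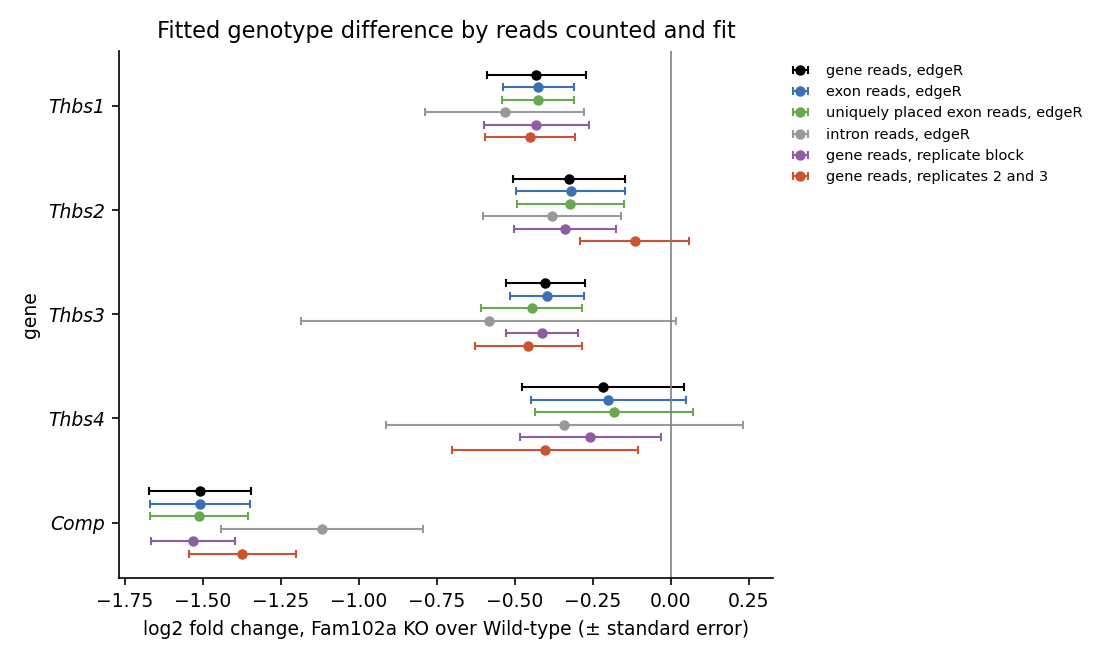
Log2 fold change of each member, Fam102a KO over Wild-type, with its standard error, fitted to gene, exon, uniquely placed exon or intron reads, with the replicate block, or on replicates 2 and 3. *Comp* lies between -1.53 and -1.12 in every fit, and *Thbs1* and *Thbs3* lie between -0.58 and -0.40.

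The sequence upstream of the start was available for *Thbs2*, *Thbs3* and *Thbs4* in the RefSeq promoter table (GRCm38.p6), matching 3 of the 5 members. The 250 bases before the start are shown for *Thbs2* and *Thbs3*, because the study turns on Runx2 and the members differ in the core promoter letters that they hold. Capitals mark a CCAAT box, a TATA box or a GC box on either strand, whose letters are given after the sequences.

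Thbs2, chr17:14694263-14694512, reverse strand: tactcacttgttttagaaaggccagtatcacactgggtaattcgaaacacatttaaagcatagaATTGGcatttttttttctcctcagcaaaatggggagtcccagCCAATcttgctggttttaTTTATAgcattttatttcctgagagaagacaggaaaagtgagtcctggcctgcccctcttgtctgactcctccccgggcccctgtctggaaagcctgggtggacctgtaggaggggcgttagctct

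Thbs3, chr3:89214930-89215179, forward strand: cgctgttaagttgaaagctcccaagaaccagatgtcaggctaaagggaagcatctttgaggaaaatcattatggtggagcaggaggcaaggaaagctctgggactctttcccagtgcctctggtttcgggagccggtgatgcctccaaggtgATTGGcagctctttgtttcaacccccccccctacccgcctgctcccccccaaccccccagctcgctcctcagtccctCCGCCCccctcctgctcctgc

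The RUNX core TGTGGT, searched on both strands, was not in any of the 3 windows, and 14.0% of 32851 windows of this length held it. The TATA box TATAAA was found once in *Thbs2*, 126 bases before the start, and in 12.4% of all windows. The CCAAT box was found at 186 and 144 bases before the start of *Thbs2* and at 98 bases before that of *Thbs3*, and in 33.8% of all windows. The GC box GGGCGG was found once in *Thbs3*, 21 bases before the start, and 3 times in *Thbs4*, and in 32.7% of all windows. None of these letters overlapped each other. The window of *Thbs4* held 70.8% G and C, that of *Thbs3* 58.8% and that of *Thbs2* 46.8%.

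Of the matrix proteins that thrombospondins bind, 0 passed the adjusted threshold. Of 17 tested partners, 15 had a log2 fold change below 0, where 50.2% of all tested genes did, and the median was -0.41. At an unadjusted p under 0.05 there were 6 lower and 0 higher genes, against 3.12% lower and 2.92% higher over all tested genes. *Hapln1*, the link protein of aggrecan, stood at 31.1 ± 4.80 CPM in Wild-type and 16.5 ± 2.94 in Fam102a KO, a log2 fold change of -0.92 (SE 0.165). The collagen IX chains *Col9a3*, *Col9a2* and *Col9a1* had log2 fold changes of -0.77 (SE 0.144), -0.85 (SE 0.197) and -1.38 (SE 0.399). Of the tested partners, *Hapln1*, the 3 collagen IX genes, *Col2a1*, *Acan* and *Matn3* are also on the chondrocyte list. All of these were below 0, so the 2 lists are not separate results. Both were chosen with earlier results of these data known. *Col1a1* and *Col1a2*, the chains of collagen I, had log2 fold changes of 0.00 (SE 0.197) and 0.02 (SE 0.156).

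The receptors of thrombospondins were balanced, with 7 of 17 below 0, where 50.2% of all tested genes were. Their median log2 fold change was 0.05. At an unadjusted p under 0.05, 2 were higher and 1 lower, against 2.92% higher and 3.12% lower over all tested genes. The laminin receptor subunit *Itga6* stood at 11.1 ± 3.91 and 21.3 ± 5.56 CPM (log2 fold change 0.94, SE 0.302), and *Itgb3*, a partner of integrin alpha V, had 0.49 (SE 0.192). The heparan sulfate proteoglycan *Sdc4* had -0.33 (SE 0.144). *Cd47*, the receptor of the carboxy-terminal domain, had a log2 fold change of -0.14 (SE 0.219), and *Cd36*, the receptor of the type 1 repeats, of -0.35 (SE 0.467).

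Among 9 tested proteases that cleave or are bound by thrombospondins, an unadjusted p under 0.05 was reached by 2 higher and 2 lower genes. Over all tested genes, 2.92% were higher and 3.12% lower at that threshold. The median log2 fold change of the proteases was 0.26. *Adamts4*, an aggrecanase, stood at 13.8 ± 1.30 CPM in Wild-type and 23.4 ± 1.96 in Fam102a KO (log2 fold change 0.76, SE 0.129, adjusted p = 0.150 in edgeR's quasi-likelihood test). *Adamts12*, which cleaves Comp, had 0.69 (SE 0.229). The serine protease *Htra1* had -0.77 (SE 0.208) and the gelatinase *Mmp2* -0.32 (SE 0.121), genes that the study also marked on these libraries.

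Of 16 genes of latent TGF-beta and its response, 3 were below 0, where 50.2% of all tested genes were. Their median log2 fold change was 0.12. *Postn*, a matrix gene of the periosteum, had 0.52 (SE 0.206), and the receptors *Tgfbr1* and *Tgfbr2* had 0.37 (SE 0.148) and -0.27 (SE 0.115). Of 26 tested genes for other proteins with type 1 repeats, 14 were below 0, against the same 50.2%, with a median of -0.07. *Thsd4*, which promotes fibrillin assembly, had -0.82 (SE 0.167) and the secreted *Ism1* -0.53 (SE 0.109). These were the 2 genes of the list with an unadjusted p under 0.05, which 3.12% of all tested genes reached in that direction. Of 15 genes for the folding of thrombospondins in the endoplasmic reticulum, 4 were below 0, against the same 50.2%. The median was 0.08, and *Pofut2*, which adds fucose to type 1 repeats, had 0.23 (SE 0.0959). None of the genes on these lists passed the adjusted threshold.

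**Figure D4:**
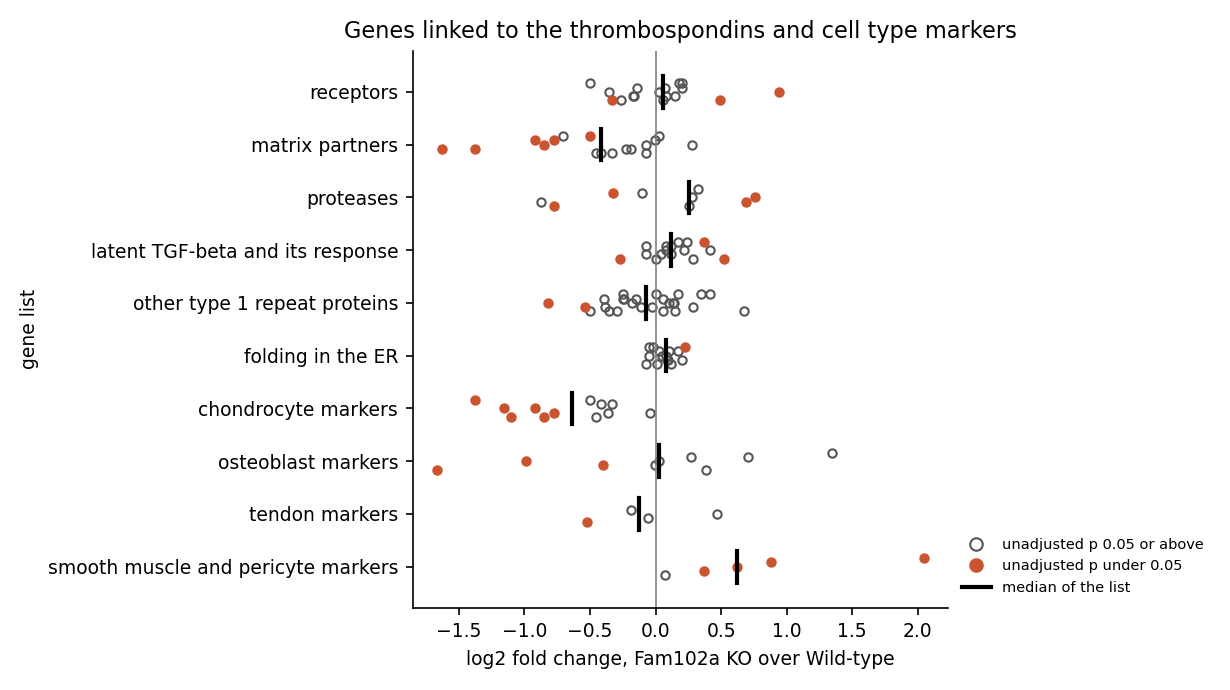
Log2 fold change of each tested gene on 10 lists, Fam102a KO over Wild-type, with the median of each list as a line and genes at an unadjusted p under 0.05 filled. The matrix partners have a median of -0.41 and the chondrocyte markers of -0.64, and the smooth muscle and pericyte markers a median of 0.62.

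Markers of other cell types stood at differing levels. All 5 smooth muscle and pericyte markers were above 0, where 50.2% of all tested genes were below 0, and their median was 0.62. At an unadjusted p under 0.05, 4 were higher, against 2.92% of all tested genes, and none passed the adjusted threshold. The smallest p were those of *Myh11* (0.88, SE 0.296) and *Rgs5* (2.05, SE 0.695). *Rgs5* overlapped, at 7.55, 3.91 and 3.31 CPM in Wild-type and 29.0, 25.3 and 5.79 in Fam102a KO. Their summed level overlapped between the genotypes, at 207 to 247 CPM in Wild-type and 217 to 382 in Fam102a KO. The osteoblast list was split. *Alpl*, *Sp7* and *Runx2* had log2 fold changes of -1.67 (SE 0.256), -0.98 (SE 0.184) and -0.40 (SE 0.121). None of these passed the adjusted threshold (adjusted p = 0.161, 0.193 and 0.603 in edgeR's quasi-likelihood test). By quantitative PCR, the paper reported unchanged *Runx2* and lower *Sp7* in Fam102a-deficient calvarial cells. It also reported normal Runx2 protein in such cells, but less Runx2 in the nucleus. *Ibsp*, *Dmp1*, *Phex* and *Spp1* went the other way, at 1.35 (SE 1.37), 0.70 (SE 0.364), 0.38 (SE 0.348) and 0.27 (SE 0.368). The median of 9 tested osteoblast genes was 0.02. *Bglap*, the late osteoblast gene, had 59 reads in all 6 libraries together. It stood at 2.62 CPM in Fam102a KO replicate 2, 0.51 in Wild-type replicate 1 and 0 in the other libraries. *Ibsp* stood at 5.19 CPM in Fam102a KO replicate 2 and 0.214 to 1.44 in the other libraries. The summed level was 41.9 to 73.8 and 9.09 to 91.8 CPM for 5 endothelial markers and 106 to 334 and 61.0 to 199 for 4 macrophage markers, in Wild-type and Fam102a KO. The 5 megakaryocyte and platelet markers summed to 13.6 to 27.4 and 10.7 to 18.1 CPM, and in all 6 libraries together *Pf4* had 1147 reads, *Itga2b* 303, *Gp1bb* 255, *Ppbp* 6 and *Gp9* 2. Skeletal muscle markers summed to 25.7 to 41.2 and 41.8 to 69.7, and adipocyte markers to 20.2 to 25.2 and 12.8 to 21.9 CPM. The skeletal muscle sum was mostly *Des*, which is also on the smooth muscle and pericyte list. *Myod1*, *Myog* and *Ckm* had only 10, 8 and 12 reads in all 6 libraries together. Among these, *Des* of muscle (0.62, SE 0.262) and *Pparg* of fat (-0.80, SE 0.188) had an unadjusted p under 0.05.

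The genes most like each member across the 6 libraries were ranked by the root mean square difference of centred log2 CPM, over 10881 genes. For *Comp* they were *Fbln7*, *Timp4* and *Gdf10*, at 0.15, 0.15 and 0.26. *Fbln7*, a fibulin of the matrix, fell from 16.0 ± 1.27 to 5.20 ± 0.653 CPM and *Gdf10*, a TGF-beta family ligand, from 54.5 ± 4.93 to 17.8 ± 3.89 (SD, n = 3), and both were among the 5 genes called lower, with adjusted p of 0.0194 and 0.0224 in edgeR's quasi-likelihood test. *Timp4*, an inhibitor of metalloproteinases, missed the threshold (adjusted p = 0.0719 in the same edgeR test). For *Thbs1* the nearest profiles were *Rgs3*, *Neo1* and *Sav1* (0.03, 0.04 and 0.06), and for *Thbs3* they were *Mut*, *Aplp2* and *Zdhhc24* (0.04, 0.05 and 0.06). *Thbs2* was nearest to *Slf1*, *Adprm* and *2700062C07Rik* (0.06, 0.07 and 0.08), and *Thbs4* to *Gpx1*, *Hmmr* and *Rps12-ps3* (0.05, 0.06 and 0.06). The distances of *Comp* were larger than those of the other members, but distances were not scaled to the size of a gene's differences. The measure picks genes that shift alike, so the lower calls of *Fbln7* and *Gdf10* are not separate evidence.

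Neighbouring genes were examined where they overlap a member or start near it. *Gm13986* begins on the opposite strand 674 bases before the start of *Thbs1* and runs away from it without overlap. Its log2 fold change was -0.45 (SE 0.181). The antisense *Gm29233* lies within *Thbs1* and shares 208 exon bases (-0.44, SE 0.409). Strand use in counting is not given in the sources used here, so reads of *Thbs1* and *Gm29233* cannot be told apart there. At 4755 bases before the start of *Thbs3* the annotation has *Gm43737*, which had too few reads to be tested. Apart from these and *Mtx1*, no gene of GENCODE overlapped a member or began within 5 kb of its start. RefSeq places the 250 bases before the start of *Mtx1* at chr3:89213908-89214157, reverse strand. By that start, *Mtx1* begins within 5 kb of *Thbs3* and runs away from it without overlap.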

How the data were processed

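Complementary DNA was made from total RNA with the SMART-seq v4 kit, and an Ion Proton instrument read it. The authors used CLC Genomics Workbench 12.0.3 with the mm10 build to map reads and to count them by gene. The tables that they deposited hold read counts (over genes, exons, introns and junctions, in total and for uniquely placed reads) and RPKM, which the authors computed from exon reads, exon length and the gene reads of the library. Mapping settings, strand use and the annotation release were not found in the sources used here.

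The fit used edgeR 4.0.16 (R 4.3.3) on gene reads. Its expression filter was set to a minimum count of 10, a minimum total of 15, a large n of 10 and a minimum proportion of 0.7. Libraries were TMM-normalised, genotype was the only term, and robust quasi-likelihood p-values were adjusted by Benjamini-Hochberg over all genes tested, with a threshold of 0.05. Log2 fold changes are Fam102a KO over Wild-type. Their standard error was taken as the log2 fold change divided by the root of F, without sign. The fit was tested on simulated data. DESeq2 1.42.0, limma 3.58.1 on log2(RPKM + 0.1) and log2(RPKM + 1), other read classes, filters and leave-outs were tried. Shares were compared by a 2-sided exact permutation test. Same-numbered libraries deviated together from their genotype means (r = 0.23, 0.19 and 0.20 across 14619 genes, which are not independent replicates), so the numbers were taken to pair the libraries, from the data and not from a label. Neighbours were read from GENCODE M21 (GRCm38).

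The members and gene lists were chosen with earlier results of these data known. Named genes were the 5 members, *Fam102a*, up to 4 genes of each list with the smallest unadjusted p under 0.05, the 3 genes of mean CPM 5 or more most like each member, and genes that overlap a member or start within 5 kb of it. *Col2a1*, *Col1a1*, *Col1a2*, *Matn1*, *Scx*, *Cd47*, *Cd36*, *Bglap* and the megakaryocyte and platelet markers fall outside this rule and were named after their values were seen. The same holds for *Acan*, *Matn3*, *Myod1*, *Myog*, *Ckm*, *Ibsp*, *Dmp1*, *Phex* and *Spp1*.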

Additional observations from a re-analysis of the deposited data

How the results depend on the processing

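Each member kept a log2 fold change below 0 under every alternative run. *Comp* lost its call in 5 alternatives beside the leave-outs, namely intron reads alone (-1.12, adjusted p = 0.653 in edgeR's quasi-likelihood test), limma on log2(RPKM + 0.1) (-1.40, adjusted p = 0.315) and on log2(RPKM + 1) (-1.38, adjusted p = 0.188), the fit without robust estimation (-1.51, adjusted p = 0.0518 in edgeR) and replicates 2 and 3 alone (-1.37, adjusted p = 0.307 in edgeR). Limma on RPKM moved the median of all genes by 0.11 and 0.06 on the log2 scale. Leaving out each library gave *Comp* -1.70 to -1.39 on gene reads and -1.71 to -1.39 on exon reads, the latter chosen after seeing the data. *Thbs1* passed only in DESeq2, on gene reads (-0.43) and, chosen after seeing the data, on exon reads (-0.43).

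The count of genes called, 8 in all, was 116 in DESeq2, 340 with no filter, 4 on intron reads, 0 in limma with either pseudocount, 5 without robust estimation, 0 on replicates 2 and 3, and 0 to 13 when a library was left out. The count at an unadjusted p under 0.05, 991 in all, was 2050 with no filter, 658 on intron reads, 1603 in limma on log2(RPKM + 1), 1304 on log2(RPKM + 0.1), and 627 to 1539 when a library was left out. The 991 genes were 479 higher and 512 lower, against 1019 higher and 285 lower in limma on log2(RPKM + 0.1) and 1373 higher and 230 lower on log2(RPKM + 1). On exon reads, 42 genes were called with the replicate block against 11 without it. The replicate block on gene reads called 9 genes and gave *Comp* -1.53 (adjusted p = 0.0441 in edgeR's quasi-likelihood test).

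In the shares of summed RPKM, the difference of *Thbs2* ranged from -0.25 to 1.50 percentage points over the leave-outs and that of *Thbs3* from -0.00997 to 0.0407, both changing sign. The intron shares of *Thbs1*, *Thbs2*, *Thbs3* and *Thbs4* also changed sign over the leave-outs, with ranges of -0.225 to 0.0437, -0.671 to 0.239, -0.552 to 0.416 and -3.39 to 0.191 percentage points.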
